A study of Mus musculus with 6 samples.

Results

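Fat and Dachsous proteins are giant cadherins that bind each other across cell borders, and together with the core planar polarity proteins they orient cells within the plane of a tissue. The 9 genes described here are the receptors Fat1, Fat2, Fat3 and Fat4, the ligand Dchs1, the modifying kinase Fjx1, and the core polarity genes Vangl1, Vangl2 and Celsr1. They were chosen by gene symbol, as the array rows that carry 1 of these names alone, out of 19938 genes named in this way. Of several rows for a gene, the brightest by its average over the 6 arrays stood for it, which mattered for Fat3 only, since the other 8 genes had 1 row each. The family was put together with earlier results of the same mutant and control comparison known, so the differences of the 9 genes are given as a description, and the calls among them are not independent evidence.

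Whole colon had been taken from 3 control mice, labelled wild type, and from 3 VilCre;Ihhflox/flox mice, labelled Ihh mutant. In the mutants Cre recombinase, expressed in intestinal epithelium from the villin promoter, deletes Ihh, which encodes the hedgehog ligand that the gut epithelium secretes (Indian hedgehog). Mutant and control of each number were littermates, which gives 3 litters. The age is postnatal day 12 in the design text and day 9 to day 12 in the growth protocol, and the labels do not state the alleles of the control mice beyond wild type. One array was run per mouse, and values are log2 expression after RMA, a background correction, normalization and probe summary that puts all arrays on 1 scale. Differences are mutant minus control on that scale, with their standard error from a limma fit across all genes that holds the litter constant. A gene is called changed at an adjusted p under 0.05.

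Fat4 is regarded as the main Fat receptor of mammals and Dchs1 as its main ligand, and mice lacking either share defects in several organs. Fjx1 sits in the Golgi and phosphorylates cadherin repeats of both, which tunes their binding. The core system is separate: Celsr cadherins with Frizzled receptors on one cell face meet Celsr with Vangl on the next, and Dishevelled and Prickle proteins gather on opposite sides. Both systems act in gut mesenchyme, the connective tissue and muscle layer beneath the epithelium, where hedgehog signals from the epithelium are received. Fat proteins are also tied to the Hippo pathway, which restrains the coactivators YAP and TAZ.

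Array medians lay between 7.1 and 7.14, and correlations between arrays over genes between 0.9886 and 0.9967. The deleted gene Ihh read 8.5, 8.54 and 8.68 in the control mice against 8.37, 8.22 and 8.22 in the mutant mice, a difference of -0.30 ± 0.09 that did not pass (limma adjusted p = 0.139). The deleted part of the gene is not stated in the labels, so this value checks the labels only in part. The hedgehog targets Ptch1, Gli1 and Hhip fell, with differences of -1.44 ± 0.09, -0.78 ± 0.08 and -2.16 ± 0.13 (limma adjusted p = 0.000493, 0.00355 and 0.000493). Xist, which marks female mice, was 11.96, 5.96 and 5.83 in the controls and 6.41, 12.03 and 11.92 in the mutants. Littermates thus differed in Xist in all 3 litters, with the higher level in the control of litter 1 and in the mutants of litters 2 and 3.

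Fat4 was the only one of the 9 genes to pass the test. Control mice of litters 1, 2 and 3 stood at 10.30, 10.28 and 10.17, and their mutant littermates at 9.04, 9.03 and 8.87. The groups were separated by a gap of 1.13, far above the SD of 0.0692 within controls and 0.0941 within mutants. Fat4 fell by 1.27 ± 0.08, which is 2.41-fold, with adjusted p = 0.000493 in the limma fit. Among all 19938 genes, 23 had a larger fall (0.115%), of which 19 were called. The fall was -1.26, -1.24 and -1.30 in litters 1, 2 and 3. Adding Xist to the model, on fewer residual degrees of freedom, left Fat4 at -1.26 (limma adjusted p = 0.002). The part of sex in the fall beyond this fit was not tested. Of all genes 3.77% were called, 2.11% as lower and 1.66% as higher, and 1 of the 9 genes was called, as lower. In whole tissue, fewer cells of a type and less RNA per cell cannot be told apart.

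**Figure D1:**
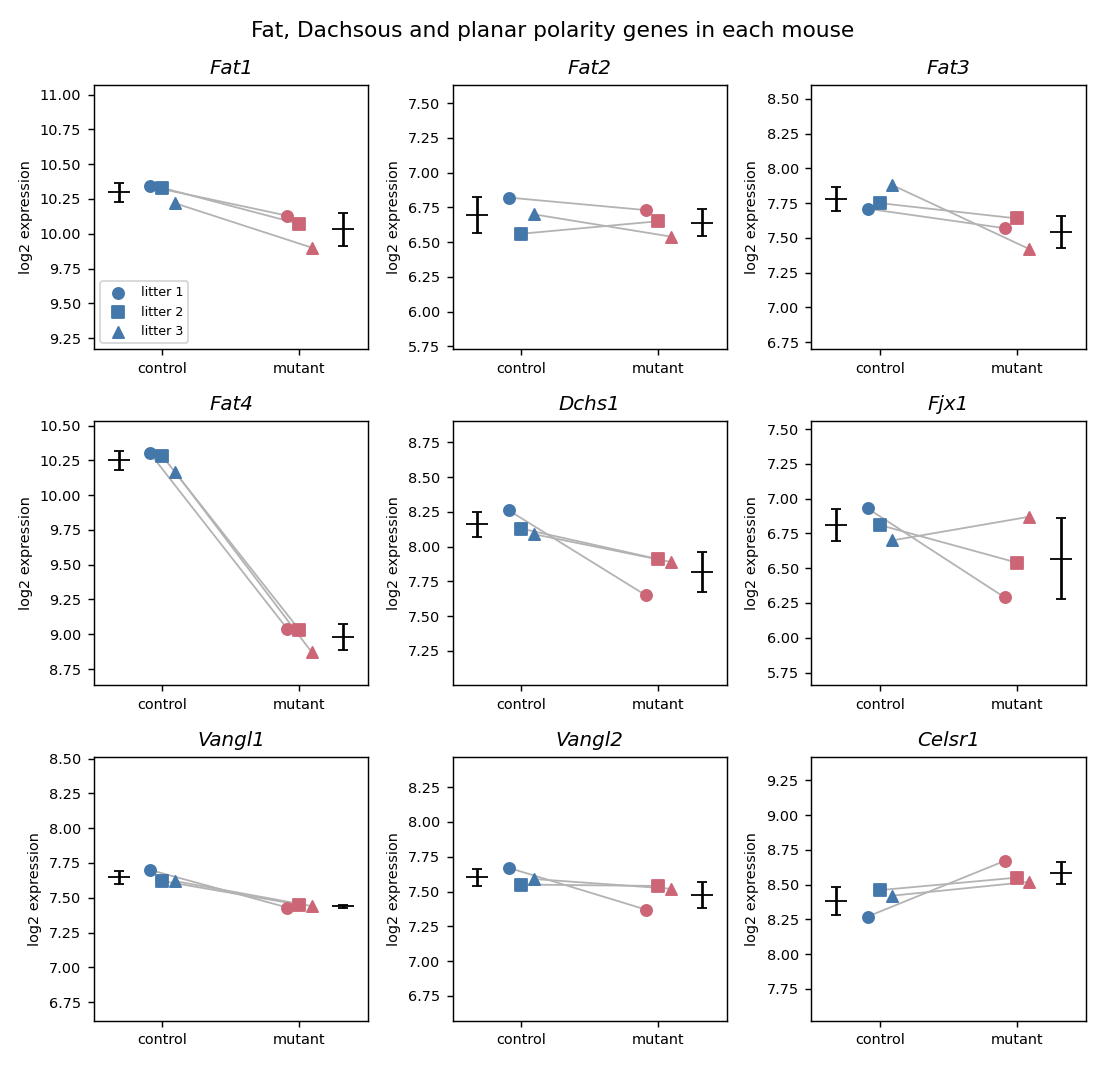
Log2 expression of each of the 9 genes (vertical axis, the same span of 1.9 log2 units in each panel) in control (blue) and mutant (red) mice. Symbols mark the litter, grey lines join littermates, and black bars beside the points give mean and SD of 3 mice. Fat4 drops from between 10.17 and 10.30 to between 8.87 and 9.04, while Fjx1 crosses in litter 3.

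The other Fat receptors were measured with smaller differences. Fat1, a Fat cadherin of many epithelia and mesenchymes, was 10.34, 10.33 and 10.22 in controls and 10.13, 10.07 and 9.90 in mutants. All mutants lay below all controls, by a gap of 0.08. The difference was -0.26 ± 0.08, with a 95% interval from -0.44 to -0.07 before correction, and it did not pass over all genes (limma adjusted p = 0.150). Fat2, a receptor known from cerebellar neurons and migrating epithelia, was 6.82, 6.56 and 6.70 in controls and 6.73, 6.65 and 6.54 in mutants. Its groups overlapped, and its litters differed in sign. The interval of its difference, from -0.26 to 0.15, leaves room for a small change in either direction.

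Fat3, a receptor known from the nervous system and retina, was covered by 15 rows of the array, and the result depended on the row. The brightest row, which stands for the gene here, was 7.71, 7.75 and 7.88 in controls and 7.57, 7.64 and 7.42 in mutants. Mutants lay below controls by a gap of 0.07, and the difference of -0.23 ± 0.10 did not pass (limma adjusted p = 0.303). The litters gave -0.14, -0.11 and -0.45, and without litter 3 the value was -0.12. The mean over the 6 arrays was 7.66 for this row, 7.47 for the next and 7.42 for the third. The last of these, numbered 10591135, was 7.75, 7.98 and 7.86 in controls and 7.11, 7.03 and 6.79 in mutants. Here the groups were further apart, with a gap of 0.64 and a difference of -0.88 ± 0.10, and adjusted p = 0.00557 in a limma fit over all 21789 rows with 1 symbol.

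All 15 rows of Fat3 had a mean difference below 0, from -0.88 to -0.01 with a median of -0.38. In 11 rows the mutants lay wholly below the controls, against 9.69% of all rows with 1 symbol. In that fit 6 rows were called as lower and none as higher, where 2.04% of all rows were called as lower. The highest-mean row was not among the 6. Of the 15 rows, 7 lay in the dimmest 30% of rows with 1 symbol. Among these were the called rows ranked 9, 10, 12 and 13 by mean level. The rows carry 1 gene symbol and were measured in the same mice, so they do not count as replicates. With all 15 rows averaged in each array, Fat3 differed by -0.42 with adjusted p = 0.0571 (limma). The number of rows called was 8 without litter 1, 3 without litter 2 and 2 without litter 3, and it was 0 when all rows of the table were tested, those with several symbols or none included. Probe positions were not used here, so the rows cannot be placed along the gene.

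**Figure D2:**
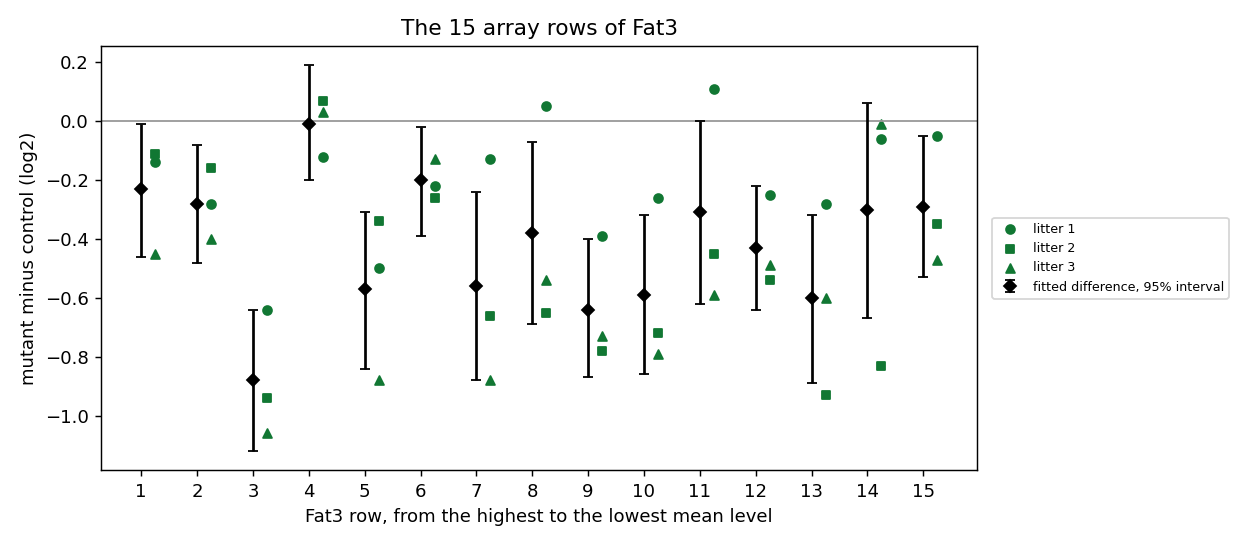
Mutant minus control difference (log2, vertical axis) for the 15 rows of Fat3, ordered from the highest to the lowest mean level. Diamonds with bars are the fitted differences with 95% intervals and green symbols the 3 litters. The third row reaches -0.88 while the fourth stands at -0.01.

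The ligand gene Dchs1 was 8.26, 8.13 and 8.09 in controls and 7.65, 7.91 and 7.89 in mutants. Mutants lay below controls by a gap of 0.18, and mutant 1 was the lowest. The difference was -0.34 ± 0.10 with an interval from -0.58 to -0.10, and it did not pass (limma adjusted p = 0.137). Litter 1 gave -0.61, litters 2 and 3 gave -0.22 and -0.20, and without litter 1 the value was -0.21. With the Xist level as a covariate Dchs1 stood at -0.42 and passed (adjusted p = 0.0269), on 1 residual degree of freedom fewer. Dchs2, the second Dachsous gene, was not analysed here.

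Fjx1, the kinase gene, was 6.93, 6.81 and 6.70 in controls and 6.29, 6.54 and 6.87 in mutants. It was lower in the mutants of litters 1 and 2, by 0.64 and 0.27 on the log2 scale, and higher in that of litter 3, by 0.17. The groups overlapped, and the SD among mutants, 0.292, was the widest of the 9 genes. The fitted difference of -0.24 ± 0.14 did not pass (limma adjusted p = 0.505) and its interval ran from -0.57 to 0.08. It was -0.05 without litter 1 and -0.45 without litter 3.

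Of the core polarity genes, both Vangl genes, which encode membrane proteins at one face of the cell, had lower means in mutants. Vangl1 was 7.70, 7.62 and 7.62 in controls and 7.43, 7.45 and 7.44 in mutants, with a gap of 0.16 and an SD of only 0.0132 among mutants. Its difference was -0.20 ± 0.08 (interval from -0.39 to -0.02), which did not pass (limma adjusted p = 0.275). Vangl2, mutated in the loop-tail mouse with its open neural tube, was 7.67, 7.55 and 7.59 in controls and 7.37, 7.54 and 7.52 in mutants. The groups were set apart by 0.01 alone, and the litters gave -0.30, -0.01 and -0.07. The fitted -0.12 ± 0.09 did not pass (limma adjusted p = 0.625), and without litter 1 it was -0.04.

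Celsr1, the cadherin of the core system that joins neighbouring cells, was the 1 gene of the 9 with a higher mean in mutants. It was 8.27, 8.46 and 8.42 in controls and 8.67, 8.55 and 8.52 in mutants, so all mutants lay above all controls by a gap of 0.06. The difference of 0.20 ± 0.09 was 0.40 in litter 1 and 0.10 in each of the others, and it did not pass (limma adjusted p = 0.385). Without litter 1 it was 0.10. In all, 6 of the 9 genes were lower in mutants without overlap, against 9.78% of all genes, and 1 was higher without overlap, against 10.0%. The median difference of the 9 genes was -0.23, beside 0.01 over all genes. By the row that stands for each gene, all 9 lay above the level that bounds the dimmest 30% of genes.

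**Figure D3:**
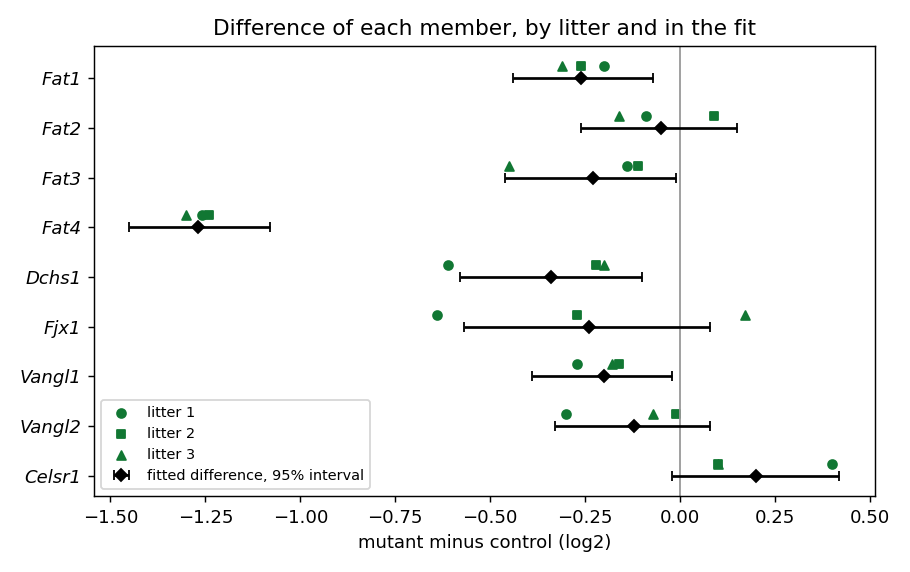
Mutant minus control difference (log2, horizontal axis) of the 9 genes. Diamonds with bars are the fitted differences with 95% intervals before correction and green symbols the 3 litters. Fat4 at -1.27 stands apart from the other 8, which lie between -0.34 and 0.20.

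Few of the remaining core polarity genes passed. Of 16 measured, 1 fell, 0 rose and 15 did not pass, and 4 were lower without overlap, against 9.78% of all genes. Over all genes 2.11% were called as lower and 1.66% as higher, the shares to set beside the calls in this list and the following ones. Prickle2, a cytoplasmic partner of Vangl, fell by 0.47 ± 0.08 (limma adjusted p = 0.0197, and 0.0819 without litter 3). It was 7.71, 7.79 and 7.68 in controls and 7.22, 7.36 and 7.19 in mutants. Its relative Prickle1 was 8.22, 8.38 and 8.25 in controls and 7.97, 8.03 and 7.92 in mutants, with adjusted p = 0.0837 (limma), and was named after its values were seen. Celsr2 and Celsr3 differed by -0.04 and 0.05, and the Frizzled genes Fzd3 and Fzd6 by 0.02 and 0.04. The list median was -0.02.

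Noncanonical Wnt signalling is the branch that feeds into planar polarity. Of its ligands and receptors, 11 of 13 genes measured were lower without overlap, against 9.78% of all genes. The list, like the others, was chosen with earlier results of these data known. Of the 13, 2 fell, 0 rose and 11 did not pass, and the list median was -0.32. Wnt5a, a ligand made by gut mesenchyme, was 9.18, 9.05 and 9.01 in controls and 8.22, 8.52 and 8.42 in mutants. It fell by 0.69 ± 0.10 (limma adjusted p = 0.0137). Gpc3, a cell surface glypican that binds Wnt and hedgehog proteins, fell by 0.46 ± 0.10 with adjusted p = 0.0493, and 0.260 without litter 3. Gpc3 was not called under 7 of 14 alternatives, among them the fit without the litter block (0.0723). The list medians were -0.29, -0.25 and -0.22 in litters 1, 2 and 3.

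Among 16 planar polarity effectors, which act on the actin skeleton or on cilia, 1 fell, 0 rose and 15 did not pass. Daam2, a formin that acts below Dishevelled, was 7.79, 7.42 and 7.40 in controls and 7.01, 7.03 and 6.95 in mutants. It fell by 0.54 ± 0.10 (limma adjusted p = 0.0286, and 0.0519 without litter 1). Of 12 measured partners of the Fat and Dachsous tails, 0 fell and 0 rose in the limma fit. An unadjusted p under 0.05 was seen for 4 of them, beside 15.1% of all genes. The pair with the smallest p were Enah, an actin regulator recruited by Fat1 (-0.39 ± 0.12, adjusted p = 0.162), and Lix1l (-0.29 ± 0.10, adjusted p = 0.200). Both passed with the Xist level as a covariate, at 0.0375 and 0.0463, and Enah also without litter 3 (0.0472). Without litter 1 Enah was -0.22 (limma adjusted p = 0.346) and Lix1l -0.17 (adjusted p = 0.359). Of the 12 partners 3 were lower and 2 higher without overlap, against 9.78% and 10.0% of all genes. The higher ones were Lix1 (0.24, limma adjusted p = 0.219) and Homer1 (0.21, adjusted p = 0.341), named after their values were seen.

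Of 24 Hippo kinases, adaptors and coactivators 0 fell and 0 rose in the limma fit, and the list median was -0.01. An unadjusted p under 0.05 was seen for 5 of them, beside 15.1% of all genes. Lats2, a kinase that phosphorylates YAP, was 8.49, 8.5 and 8.42 in controls and 8.0, 8.11 and 8.16 in mutants. Its difference of -0.38 ± 0.09 missed the threshold (adjusted p = 0.0570), and it passed under 6 of 14 alternatives, among them the fit without the litter block (0.0366). Yap1 differed by -0.04 and Wwtr1, the gene of TAZ, by -0.31 ± 0.08 (limma adjusted p = 0.103). Of the 24 genes 4 were lower and 4 higher without overlap, against 9.78% and 10.0% of all genes. The higher ones were Vgll4 (0.22), Wwc1 (0.18), Lats1 (0.12) and Taok3 (0.1), named after their values were seen. Of 21 genes known as YAP and TAZ targets, 3 fell, 1 rose and 17 did not pass, with a median of -0.21. The forkhead gene Foxf2, which is also a hedgehog target, fell by 1.24 ± 0.11 (limma adjusted p = 0.00166). Nt5e, an enzyme that makes adenosine, fell by 1.11 ± 0.18 (adjusted p = 0.0192). Axl, a receptor kinase, fell by 0.37 ± 0.08 (limma adjusted p = 0.0463) and F3, tissue factor, rose by 0.43 ± 0.09 (adjusted p = 0.0389). Axl was no longer called when any 1 litter was left out, with adjusted p = 0.0776, 0.162 and 0.148 without litters 1, 2 and 3. F3 was no longer called without litter 1 (0.0851), without litter 3 (0.142) or without the litter block (0.0821).

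Among 36 other genes of the cadherin superfamily, 5 fell, 0 rose and 31 did not pass, with a median of -0.17. Pcdh20, a protocadherin, was 7.07, 6.82 and 6.85 in controls and 6.35, 6.13 and 5.92 in mutants and fell by 0.78 ± 0.09 (limma adjusted p = 0.00457). Pcdh7 fell by 0.62 ± 0.08 and Cdh6 fell by 0.63 ± 0.09 (adjusted p = 0.00671 and 0.0105). Cdh5, the cadherin of blood vessel endothelium, fell by 0.42 ± 0.08 (limma adjusted p = 0.0332, but 0.0677 without litter 1 and 0.171 without litter 3). The fifth, named after its value was seen, was Cdh11 of fibroblasts and other mesenchyme (-0.38, adjusted p = 0.0496). The fall of Fat4 was larger than that of each of these 5, and whether it differed from them was not tested. Over the 137 genes of the 7 pathway lists, 12 fell and 1 rose, beside 2.11% and 1.66% of all genes. Without litter 3, 8 of them were called.

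**Figure D4:**
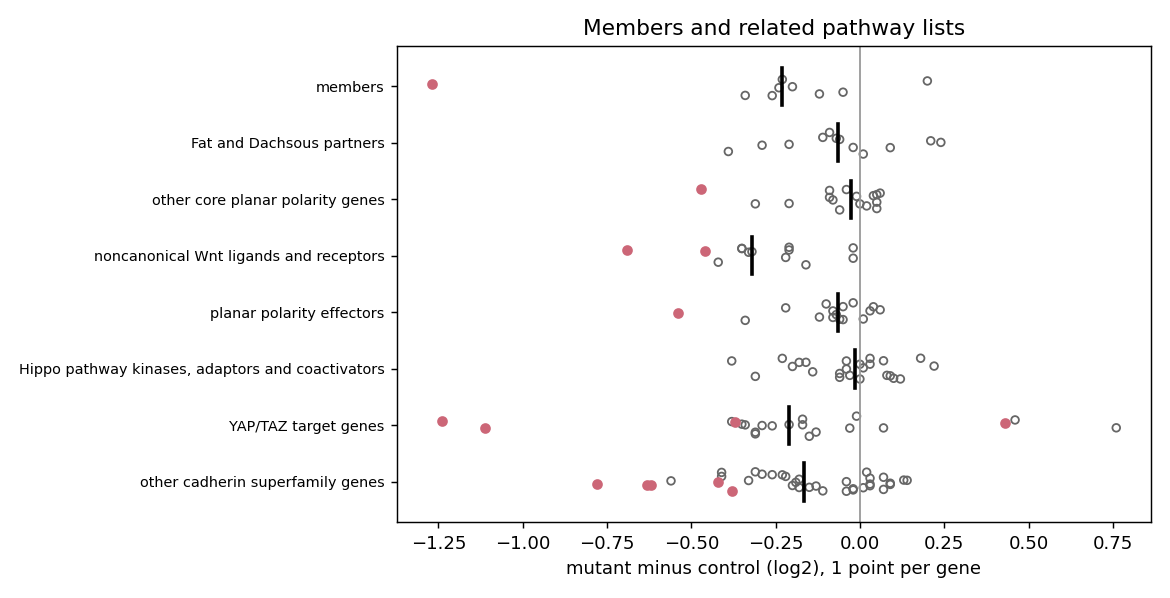
Mutant minus control difference (log2, horizontal axis) of the 9 genes (members) and of 7 related lists, 1 point per gene. Red points passed the test, open points did not, and black lines are list medians. The noncanonical Wnt list has the lowest median of the 7, at -0.32.

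Genes that mark the cell types of the gut wall moved in the same comparison. Their counts stand beside 2.11% of all genes called as lower and 1.66% as higher. Of 13 smooth muscle markers 9 fell and 0 rose, and their summed linear signal lay between 51100 and 53500 in controls and between 34500 and 44200 in mutants. Of 13 fibroblast and mesenchyme markers 4 fell and 0 rose, with sums of 47400 to 50100 in controls and 35300 to 45800 in mutants. Of 12 endothelium markers 6 fell and 0 rose, with sums of 4480 to 5340 and 3430 to 3980. Epithelium markers had 1 rise and 0 falls among 16, with sums of 50000 to 52900 in controls and 52800 to 57900 in mutants. Examples are Myh11 of smooth muscle (-0.56), Mfap5 and Ogn of fibroblasts (-1.09 and -1.43) and Kdr of endothelium (-0.61). Mfap5 and Ogn had the smallest p of the 13 fibroblast markers. Of these 13, 6 were lower and 1 was higher without overlap, against 9.78% and 10.0% of all genes. The higher one was Dcn (0.11), and Lum, Thy1 and Fbln1 stood between -0.01 and 0.03, all named after their values were seen. The 1 epithelial rise was the keratin Krt18 (0.60), while the list median was 0.06. Car1, Slc26a3 and Tspan8 were higher without overlap at 0.63, 0.51 and 0.25 and did not pass (limma adjusted p = 0.057, 0.0755 and 0.188). Krt20 stood at -0.43 (limma adjusted p = 0.0837) and Krt8, Krt19, Cdh1 and Vil1 between -0.03 and -0.02. All of these but Car1 were named after their values were seen. Of the 16 epithelium markers 5 were higher and 1 was lower without overlap, against 10.0% and 9.78% of all genes. The part of these cell types in the fall of Fat4 and in the lower values of the other genes was not tested.

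By litter, the smooth muscle median was -0.76, -0.52 and -0.33 in litters 1, 2 and 3 and the fibroblast median -0.36, -0.16 and -0.10. The endothelium median was -0.37, -0.37 and -0.38. Single markers spread widely around these medians, and some fell about as far as Fat4. Ogn differed by -1.27, -1.75 and -1.26 in the litters, and Mfap5 by -1.01, -1.12 and -1.15. Bright markers weigh most in a summed signal. The bright fibroblast markers Col1a1 and Col1a2 differed by -0.74, 0.03 and 0.07 and by -0.77, -0.03 and -0.1 in the litters. Neither passed, and both were named after their values were seen. Small intestinal enterocyte markers had 2 rises among 10, with sums of 2800 to 3560 in controls and 3650 to 5500 in mutants, and macrophage and neutrophil markers had 4 rises among 11 (2720 to 3340 and 2760 to 3860). The enterocyte rises were the bile acid transporter Slc10a2 (1.17) and the fatty acid binding protein Fabp2 (0.73). Apoa4 (1.19), Fabp6 (1.07) and Slc5a1 (0.31) were higher without overlap but did not pass (limma adjusted p = 0.108, 0.171 and 0.16). The alkaline phosphatase Alpi stood at -0.59 (limma adjusted p = 0.0663) and Sis, Lct and Apob between 0.09 and 0.13. Of the 10 enterocyte markers 6 were higher and 0 lower without overlap, against 10.0% and 9.78% of all genes. Among the 6, Gata4 differed by 0.08 alone, and Fabp6 lay in the dimmest 30% of genes. The 4 rises of the macrophage and neutrophil list were Cxcr2 (1.60), S100a9 (0.96) and S100a8 (1.52), which neutrophils express, and Cd14 (0.40). The macrophage genes Adgre1 (-0.43, limma adjusted p = 0.0641) and Csf1r (-0.38, adjusted p = 0.067) were lower without overlap and did not pass, and C1qb, Cd68 and C1qa stood at -0.21, -0.21 and -0.16. Of these, all but Slc10a2, Fabp2, Cxcr2 and S100a9 were named after their values were seen. Mesothelium markers had 1 rise among 7 (1490 to 1830 and 1740 to 2370). Neuron markers had 0 calls among 11 in the limma fit (2930 to 3630 and 2720 to 3460). At an unadjusted p under 0.05 there was 1, beside 15.1% of all genes. Glia markers had 1 fall among 7 (3100 to 3260 and 2550 to 2840) and interstitial cell of Cajal markers 1 fall among 5 (3380 to 3670 and 2460 to 2670). The glia call was Ncam1 (-1.08 ± 0.10), which neurons and muscle also make, and that of the interstitial cells was Ano1 (-1.31 ± 0.13), while Kit of the same cells stood at 0.01. The other glia markers stood between -0.24 and 0.22, and the other interstitial cell markers between -0.12 and 0.02. The list medians were -0.1 for glia and 0 for interstitial cells, so the lower sums do not describe these lists as a whole. Skeletal muscle, squamous epithelium and pancreas markers had 0 calls among 7, 8 and 4 genes in the limma fit. At an unadjusted p under 0.05 (15.1% of all genes) these lists had 2, 0 and 1. Their sums were 1500 to 1660, 576 to 626 and 583 to 756 in controls and 1410 to 1460, 588 to 634 and 517 to 772 in mutants. RMA values have no 0 and no detection call was used, so none of these markers can be called absent.

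**Figure D5:**
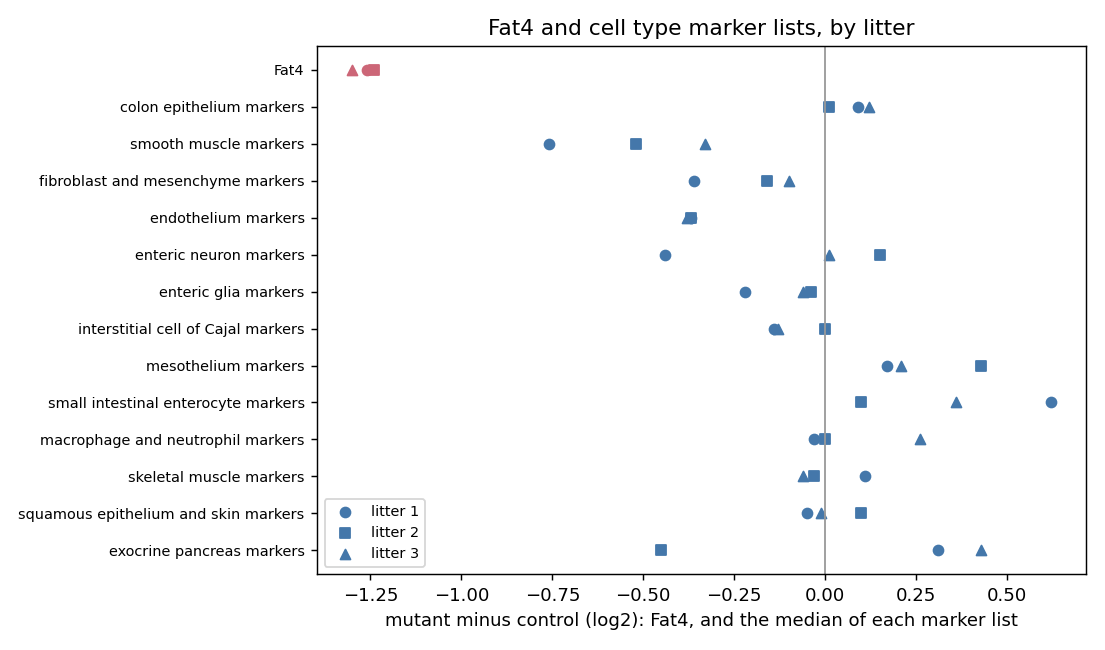
Mutant minus control difference (log2, horizontal axis) of Fat4 (red) and the median difference of 13 cell type marker lists (blue) in each litter, 1 symbol per litter. Fat4 lies between -1.30 and -1.24, and list medians reach down to -0.76, but a median hides single markers such as Ogn that differ by as much as -1.75.

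The genes whose levels over the 6 arrays were most like those of Fat4 were sought by Pearson correlation among 13955 genes outside the dimmest 30%. The 5 highest were Cdh13 (r = 0.9989), Myom1 (0.9956), Zfp536 (0.9937), Gli1 (0.9936) and Tmem47 (0.9934). Cdh13, a cadherin anchored by a lipid tail, was 7.85, 7.86 and 7.85 in controls and 7.53, 7.54 and 7.50 in mutants, a difference of -0.33 ± 0.08 that did not pass (limma adjusted p = 0.0679). Gli1, which encodes a hedgehog transcription factor, was 8.39, 8.48 and 8.34 in controls and 7.66, 7.60 and 7.61 in mutants. The 6 points share the step between the groups, and these correlations are given with no test. Within the family r with Fat4 was 0.97 for Vangl1, 0.90 for Fat1, 0.86 for Dchs1, 0.83 for Fat3, 0.67 for Vangl2, 0.51 for Fjx1, 0.33 for Fat2 and -0.79 for Celsr1.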

How the data were processed

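Per the submitters' processing notes, the authors made log2 expression values with RMA from Affymetrix Mouse Gene 1.0 ST arrays. The sources used here give neither RMA version nor genome build. The deposited log2 table has 35557 rows and 6 columns, 1 per array. Platform annotation of 2016 gave 1 symbol to 21789 rows and several to 1621, and 12147 are unnamed here. Keeping the brightest row of each gene left 19938 genes. Only 3 arrays per group limit the precision.

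limma 3.58.1 (R 4.3.3) compared mutants with controls, two-sided, by lmFit with the litter as a fixed block and by eBayes with no trend. Adjustment was Benjamini-Hochberg over the 19938 genes. The design text pairs littermates. Over genes, the correlations of littermates' deviations were 0.0128, 0.00516 and 0.0613, and the pairing is taken from the labels alone. There were 2 residual degrees of freedom and 5.85 prior ones. Rows of Fat3 were read from a fit of all rows with 1 symbol. Scripts were tested on simulated data.

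The members, 7 pathway lists and 13 marker lists were chosen with earlier results of these data known. Older symbols in the lists were updated through RefSeq synonyms. Genes named are the 9 members; Ihh, Ptch1, Gli1 and Hhip; of each pathway list up to 4 called genes with the smallest p, or 2 where none was called; up to 2 of each marker list; and the 5 genes most like Fat4. Other genes were named after their values were seen. Alternatives dropped the block or made it random, used trended robust eBayes or array weights, left out the dimmest 30% of genes, renormalized by quantiles or by the median, averaged a gene's rows, tested all rows or all with 1 symbol, added Xist as a covariate, or left out each litter.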

Additional observations from a re-analysis of the deposited data

How the results depend on the processing

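Fat4 kept its direction and its call under 13 of 14 alternatives, with differences from -1.28 to -1.25; the exception was the test of all rows of the table. The other 8 genes reversed under none of the 14. Testing all rows gave adjusted p = 0.0628 for Fat4, 0 members called, 2 genes called over all and 0 in the pathway lists, with 3.01 prior degrees of freedom in place of 5.85; the cause was not tested. Against 751 genes, 1 member and 13 pathway genes in the reported fit, 1230 genes, 2 members (Fat4 and Dchs1) and 21 pathway genes were called with the Xist level as a covariate. With array weights 1246 genes and 27 pathway genes were called. Leaving out litters in turn left 8 to 12 pathway genes called. Without the replicate block 638 genes, 1 member and 14 pathway genes were called, and adjusted p was 0.000224 for Fat4. The litter block changed no call among the 9 genes. The test of rows with 1 symbol and the counts of Fat3 rows were added after seeing the data. No detection call or background signal was used here to bound dim rows.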

Other observations

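Ccn1 and Ccn2, matrix proteins and standard readouts of YAP activity, stood apart in mutant 3, and were picked out after their values were seen. Ccn1 was 9.28, 8.94 and 8.77 in controls and 9.11, 9.13 and 11.03 in mutants. Ccn2 was 9.21, 9.17 and 8.97 in controls and 9.0, 9.02 and 10.73 in mutants. Neither passed the test. The median of the 21 YAP and TAZ targets was -0.24 in litter 3, beside -0.20 in litters 1 and 2. The target F3 differed by 0.55, 0.29 and 0.45 in litters 1, 2 and 3, so it did not stand apart in litter 3. Ankrd1 differed by 0.11, -0.08 and 0.18 and Amotl2 by -0.08, -0.14 and 0.12. In litter 3 Axl, Lats2 and Nt5e differed by -0.32, -0.26 and -1.44. YAP activity itself was not measured. Mutant 3 was also the mutant in which Fjx1 (6.87) was not below its control littermate (6.70).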
